A study of Drosophila melanogaster with 2 samples.

Results

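Near-start intronic peaks are reproducible Fer3 peaks whose summit lay in an intron, over 500 and up to 2000 bp from the nearest start of a protein-coding transcript. A peak was taken when its deposited summit fell inside the span of an annotated transcript and in no annotated exon, with starts and exons from the Ensembl annotation of the fly genome. The rule used position only, and it selected 862 of the 5636 reproducible peaks (15.3%, exact 95% interval 14.4 to 16.3). They lay in introns of 719 genes, and all 862 were kept in every count below. They are compared with the 2531 promoter peaks, whose summits lay within 500 bp of a start, and the 1286 far intronic peaks, over 2000 bp from any start.

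Chromatin was immunoprecipitated from whole Drosophila melanogaster embryos collected at 6 to 24 h. The embryos came from 1 transgenic line that stably expresses the transcription factor Fer3 with GFP at its C terminus, and an anti-GFP antibody was used. The 2 samples are biological replicates of this 1 group, from separate biosamples of the same donor line, and there is no second condition to compare them with. The file descriptions list the same single control alignment for both replicates. A whole embryo mixes all tissues, so a site bound in fewer cells and a site bound less often in each cell cannot be told apart, and binding cannot be assigned to a cell type. Each list gives a position, a summit and the authors' signal value for a peak, and no read counts, so sequencing depth is unknown. The signal value is the authors' own number on a scale that the sources used here do not define, and it serves only to rank and describe peaks. All coordinates are on dm6.

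Fer3 belongs to the basic helix-loop-helix (bHLH) family, whose members pair as dimers and contact the E-box, a short DNA site of the form CANNTG. Introns of Drosophila genes often hold enhancers and alternative promoters, and the first intron is commonly the longest of a gene. A peak close to a gene start but outside the promoter can therefore lie in an enhancer, beside another start of the same gene, or in a nested gene.

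Sequences of 6 of the 7 highest of these peaks show what lay under the summits. Each line gives the plus strand of dm6 from 50 bases before the summit to 50 bases after it, 5′ to 3′, and capitals mark runs of 8 or more bases that are only A or T. They lie at chr2L:6612660-6612760 (CG11050), chr2L:481045-481145 (ush), chr3L:14759462-14759562 (Trl), chr3R:11761009-11761109 (Lk6), chrX:4910317-4910417 (CG32772) and chr2L:3302140-3302240 (CG9663).
CG11050: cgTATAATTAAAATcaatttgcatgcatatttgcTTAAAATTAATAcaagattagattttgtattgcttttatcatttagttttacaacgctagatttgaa
ush: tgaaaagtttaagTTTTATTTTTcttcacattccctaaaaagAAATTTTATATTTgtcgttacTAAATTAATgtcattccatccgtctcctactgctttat
Trl: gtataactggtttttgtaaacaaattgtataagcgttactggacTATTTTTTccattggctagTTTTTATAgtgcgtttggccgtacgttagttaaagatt
Lk6: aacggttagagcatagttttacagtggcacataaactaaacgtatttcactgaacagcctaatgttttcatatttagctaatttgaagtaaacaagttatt
CG32772: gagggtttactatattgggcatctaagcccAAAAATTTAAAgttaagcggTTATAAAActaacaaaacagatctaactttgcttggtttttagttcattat
CG9663: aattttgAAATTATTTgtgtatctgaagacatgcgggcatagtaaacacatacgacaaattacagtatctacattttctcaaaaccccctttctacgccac
GC content over these 101 bases was 22.8% at CG11050, 26.7% at ush, 32.7% at Trl, 30.7% at Lk6 and CG32772, and 35.6% at CG9663. None of the 6 windows held an E-box.

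A second set shows, among the peaks whose sequence is printed, the highest that held each of 4 motifs on which the comparisons below turn, with 51 bases of the plus strand around the match and the match in capitals. The E-box CAGCTG is shown in an intron of Reph (chr2L:3804718-3804768), the E-box CAAATG in LPCAT (chrX:9579272-9579322), the GAGA word GAGAG, here as its reverse complement, in brat (chr2L:19165144-19165194), and the DREF site TATCGATA in Stt3A (chrX:21053299-21053349).
Reph: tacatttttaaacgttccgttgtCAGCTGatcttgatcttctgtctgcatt
LPCAT: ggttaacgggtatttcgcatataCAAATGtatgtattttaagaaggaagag
brat: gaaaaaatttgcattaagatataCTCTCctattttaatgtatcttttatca
Stt3A: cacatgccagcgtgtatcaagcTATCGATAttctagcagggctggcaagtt

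The first question was whether introns hold more Fer3 peaks close to gene starts than far from them. Near-start introns held 83.7 summits per Mb (78.2 to 89.5, 862 summits in 10.3 Mb), against 29.2 per Mb in introns over 2000 bp from a start (27.6 to 30.8, 1286 summits in 44.1 Mb). The ratio was 2.87 (exact conditional 95% interval 2.63 to 3.13). Over all bases the density was 41.0 per Mb. Density was lower at larger distances inside the near-start range, at 111 per Mb (97.4 to 127) up to 750 bp, 86.0 (73.4 to 100.2) from 751 to 1000 bp, and 66.9 (54.2 to 81.8) in the outermost 250 bp. Beyond it the density was 49.6 per Mb (43.5 to 56.2) from 2001 to 3000 bp and 16.4 (14.7 to 18.2) over 10000 bp from a start. The intervals of the bins on either side of 500 bp overlapped (131 per Mb from 251 to 500 bp), and so did those on either side of 2000 bp. These intervals, like all intervals given here, cover counting error over peaks only, since peaks are not biological replicates.

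**Figure D1:**
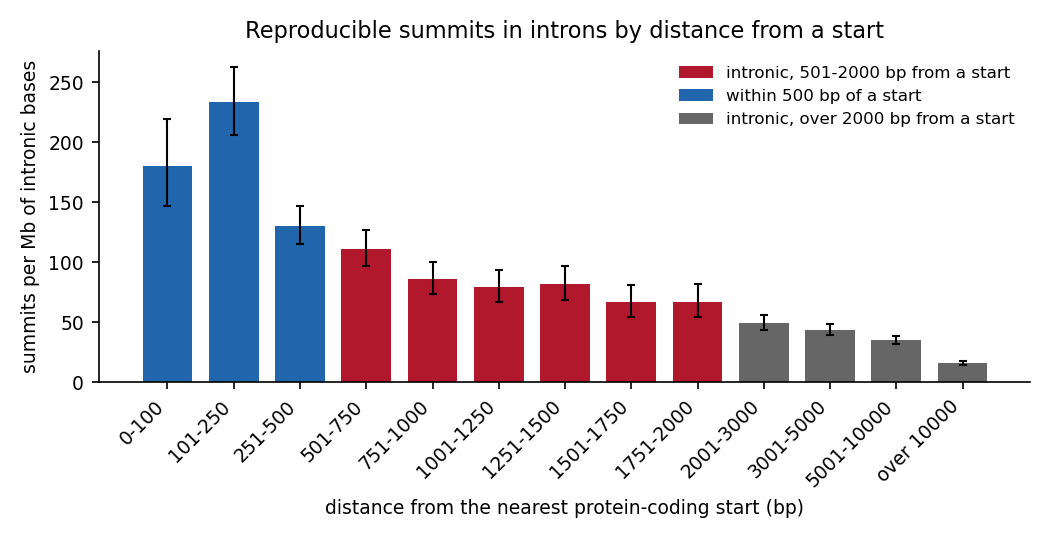
Reproducible summits per Mb of intronic bases (y axis) against distance from the nearest protein-coding start in bp (x axis), with exact Poisson 95% intervals. Red bars are the near-start range, which falls between 111 and 66.7 summits per Mb, blue bars are introns within 500 bp of a start and grey bars introns beyond 2000 bp.

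The peaks nearest each limit, 2 inside and 2 outside, are given as a description. Just inside the 500 bp limit lay a peak 503 bp from a start of qtc with signal value 306, and one 508 bp from a start of jar, which encodes myosin VI, with 634. Just outside it lay intronic peaks 498 bp from a start of pyd (208) and 500 bp from a start of CG7029 (149). At the outer limit, peaks 1998 bp from the shared start of CG43783 and orb2 (246) and 1999 bp from a start of Men-b (145) were inside. Peaks in CG3764 (372) and CG9171 (369), both at 2001 bp, were outside.

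First introns held most of the near-start intronic peaks. A first intron of some transcript contained 727 of the 862 (84.3%, 81.7 to 86.7), against 66.6% of all intronic bases in the same distance range. Far intronic peaks lay in a first intron in 58.1% of cases (55.3 to 60.8), against 37.7% of far intronic bases. Each peak was also given its lowest intron number over transcripts of the nearest gene, or of any host gene where the nearest was no host. Protein-coding transcripts were preferred. This rule favours intron 1. By this number 723 lay in intron 1, 98 in intron 2 and 41 in a later one (19 in intron 3, 10 in intron 4 and 12 in the fifth or beyond). The host intron had a median length of 5275 bp (quartiles 2214.5 and 12462.5), and 187 peaks (21.7%) lay in an intron of at most 2000 bp. For far intronic peaks the median was 15664.5 bp. Longer introns offer more bases, and the lengths were not compared with those of the bases available. The highest near-start intronic peak, in CG11050, had its summit in the middle of a second intron of 140 bp.

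On which side of the start the peaks lay followed the bases available. Of the 862, 564 (65.4%, 62.1 to 68.6) lay downstream of the nearest start, against 66.7% of the intronic bases in the range. The other 298 lay upstream of it. The nearest start belonged to a host gene in 778 cases (90.3%), and 72 peaks (8.35%) lay inside introns of 2 or more genes. Only 15 peaks (1.74%) lay within 500 bp of an annotated noncoding start, and 13.3% lay within 200 bp of an exon edge. A reproducible promoter peak stood at the nearest start of 245 of them (28.4%, 25.4 to 31.6), against 27.1% of far intronic peaks (difference 1.36 percentage points, Newcombe 95% interval −2.47 to 5.26). Of all distinct protein-coding starts, 20.7% had such a peak.

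By height, near-start intronic peaks stood between promoter peaks and far intronic peaks. Their signal values ran from 126 to 4996 with a median of 233 (quartiles 164 and 388), against medians of 244 for promoter peaks and 210 for far intronic peaks. Among the 1409 highest of the 5636 reproducible peaks by signal value were 228 of them (26.5%, 23.5 to 29.5), against 30.6% of promoter peaks (difference −4.17 points, −7.54 to −0.651) and 17.6% of far intronic peaks (difference 8.88 points, 5.30 to 12.5). The interval of the difference from promoter peaks left 0 out with replicate 1 alone and included it with replicate 2 alone, as it did for peaks up to 1000 bp from a start (−1.72 points, −6.36 to 3.28). It was −6.18 points (−9.64 to −2.56) in the 5636 highest peaks of replicate 1 alone and −1.59 points (−4.98 to 1.94) in those of replicate 2 alone. Median signal values gave the same picture, at 88.5 for near-start intronic peaks against 98.4 for promoter peaks in replicate 1, and 154 for both classes in replicate 2.

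**Figure D2:**
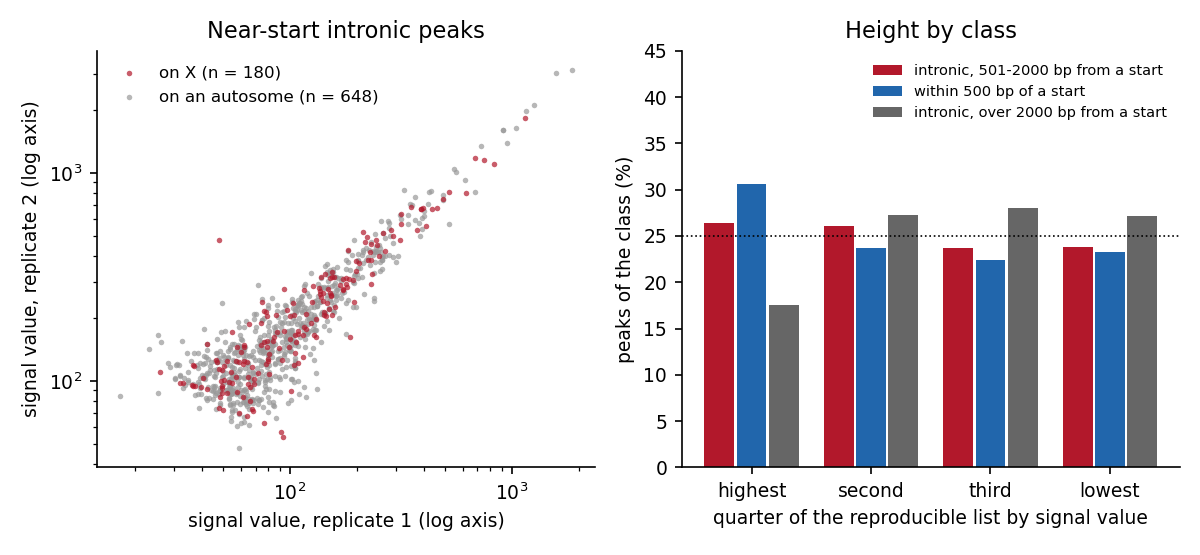
Left, the authors' signal value in replicate 2 (y axis, log) against replicate 1 (x axis, log) for the 828 near-start intronic peaks found in both, with 180 on X in red and 648 elsewhere in grey, 1 of them on chromosome 4. Right, the share of each class (y axis, percent) in each of 4 equal parts of the reproducible list by signal value, where 26.5% of near-start intronic peaks, 30.6% of promoter peaks and 17.6% of far intronic peaks were in the highest part and the dotted line marks 25%.

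Both replicates carried nearly all of the near-start intronic peaks. The reproducible list was itself derived from the 2 replicate lists and a pooled one, per the deposited file descriptions, so this overlap describes the list and is no independent check. A replicate 1 peak overlapped 841 of them (97.6%, against 96.8% of all reproducible peaks) and a replicate 2 peak 849 (98.5%, against 98.6%). Peaks of both replicates overlapped 828 (96.1%, against 95.5%), 13 had one in replicate 1 only, 21 in replicate 2 only, and none in neither. The highest peak without a replicate 1 partner lay in CG16952 (X, 15870849 to 15871082, signal value 519), followed by one in ERp60, a protein disulfide isomerase of the endoplasmic reticulum (454). Signal values of the 828 peaks had a Spearman correlation of 0.82 between replicates, given as a description across peaks that share their libraries. Replicate 1 values were mostly lower, with a median log2 ratio of −0.82 (quartiles −1.10 and −0.58) over replicate 2, and the ratio ran up to 0.79 at a CrebB peak (93.4 in replicate 1 and 53.9 in replicate 2). The widest gap was at NFAT, where a peak with 47.8 in replicate 1 matched a replicate 2 peak of 473. That replicate 2 peak also overlapped a neighbouring near-start intronic peak. In all, 10 of these peaks shared a replicate 1 peak with another, and 12 a replicate 2 peak.

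The highest near-start intronic peak lay in CG11050, followed by peaks in ush, Trl and Lk6. At CG11050 (FBgn0031836, 2L, 6612469 to 6612913) the signal value in the reproducible list was 4996, with 1877 in replicate 1 and 3136 in replicate 2, and the peak ranked 2 of 5636. The next lay in the first intron of ush (FBgn0003963, 2L, 480859 to 481295), which encodes a zinc finger cofactor of GATA factors, 1407 bp upstream of a start of cbt, a zinc finger transcription factor gene. Its signal value was 4577, with 1575 and 3031 in replicates 1 and 2. Trl, which encodes the GAGA factor, held a peak of 3371 (FBgn0013263, 3L, 14759307 to 14759721), with 1264 and 2110 in replicates 1 and 2. That peak stood 1537 bp downstream of a Trl start, and 2 lower ones of 537 and 336 lay in the same gene. Lk6 (FBgn0017581, 3R, 11760864 to 11761260), a kinase of the translation factor eIF4E, held one of 3151, with 1161 and 1991 in replicates 1 and 2. In these 4 genes the 2 replicates gave the same order of heights.

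Of the 20 highest, 18 lay in a first intron by their lowest intron number, and those of CG11050 and Trl in a second. The sixth, of signal value 2674, lay in overlapping first introns of HmgD and HmgZ (2R, 21703120 to 21703670), paired genes of high mobility group chromosomal proteins, 567 bp upstream of an HmgZ start. CG32772 held one of 2997, CG9663 one of 2573 and CG9837 one of 2332. The intron shared by chif, a relative of the replication factor Dbf4, and Hyls1, a centriole gene, held one of 2074. Among signalling genes, norpA, the phospholipase C of fly phototransduction, held one of 1944. NFAT, which encodes a factor of the calcineurin-responsive family, held one of 1860. The gene for, which encodes a cGMP-dependent protein kinase, held one of 1568.5, and Mekk1, a MAP kinase kinase kinase gene, one of 1543. Among regulators of transcription, Adf1 held one of 1480 and gce, a bHLH-PAS receptor of juvenile hormone, one of 1326. The others were in CG3726 (1900), Reph (1599), prage (1427), CG42327 (1276) and CG31635 (1256). GC content was at or below 35.6% in all 20 windows, and lowest at gce with 18.8%.

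Several genes held a row of near-start intronic peaks. Of the 719 host genes, 579 held 1 such peak, 102 held 2 and 38 held 3 or more, and 63 pairs of neighbouring summits lay within 1000 bp of each other. CG1677 (FBgn0029941, X, 7281089 to 7405797, minus strand) held 10, with signal values of 141 to 957 over 46689 bp. Only 2 of the 10 lay in a first intron, and the same introns belong to lncRNA:CR44357. The starts they stood near included those of other genes nested in or beside the host introns, among them brk, a repressor of Dpp target genes, and unc-119. At shn, which encodes a zinc finger factor of Dpp signalling (2R, 11159086 to 11217394), the 7 peaks had signal values of 138 to 1119 with a median of 167.

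NFAT (X, 13624745 to 13664568) held 6 peaks within 18170 bp, all in first introns, with signal values of 227 to 1860. CG32264 held 6 as well, with 134 to 343. CHES-1-like, a forkhead factor gene, held 5 peaks of 142 to 1145 within 9162 bp, and Tlk, a Tousled-like kinase gene, 5 of 129 to 1058 within 29113 bp. Svil, a supervillin gene with 16 protein-coding starts, and bun, a TSC22-family gene, each held 5, with 127 to 555 at Svil and 151 to 419 at bun. In these 8 genes peaks of both replicates overlapped every near-start intronic peak. Of 4 genes with 3 peaks, Trl reached 3371, HmgZ 2674, Shrm 694 and Leash 690. Protein-coding genes that hosted a peak had a median of 3000 bases of near-start introns, against 325 in those that hosted none.

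**Figure D3:**
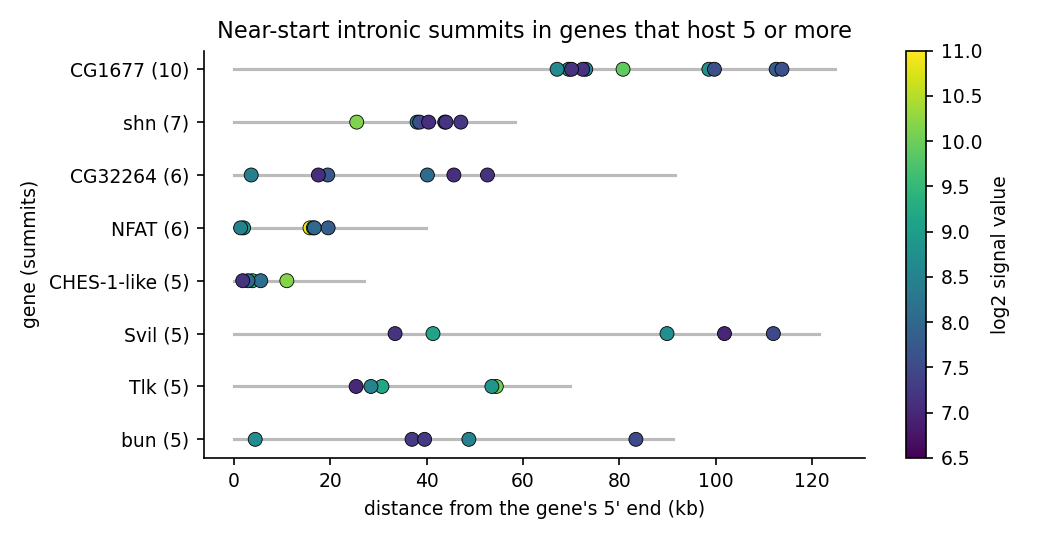
Position of each near-start intronic summit, in kb from the 5′ end of the gene (x axis), in the genes that held 5 or more (y axis, number of summits in brackets), coloured by the log2 of the authors' signal value. CG1677 held 10 summits and shn 7, and heights within a gene ranged widely, for example from 227 to 1860 at NFAT.

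Near-start intronic peaks on the X chromosome were higher than those on the autosomes, a comparison chosen after the values were seen. Their density on X was 89.0 per Mb (76.6 to 103), inside the range of 71.4 to 90.1 over 2L, 2R, 3L and 3R. Chromosome 4 held 1 such peak in 0.119 Mb (8.42 per Mb, 0.213 to 46.9). The median signal value was 279 on X (183 peaks), against 223 on the 4 large autosomal arms (678 peaks). Among the 1409 highest peaks of the list were 38.3% of the X peaks, against 23.3% of the autosomal ones (difference 14.9 points, 7.44 to 22.8). The medians pointed the same way in each replicate, with 105 on X against 84.8 on autosomes in replicate 1 and 181 on X against 149 on autosomes in replicate 2.

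Counted over all near-start intronic peaks, that gap was wider than in the other classes. Promoter peaks were among these 1409 in 30.1% of cases on X, against 30.7% on autosomes, and far intronic peaks in 21.1% on X, against 16.5% on autosomes. The X gap of near-start intronic peaks exceeded that of promoter peaks by 15.5 points (6.46 to 24.7) and that of far intronic peaks by 10.3 points (1.05 to 19.5). Clusters such as those of CG1677 and NFAT lie on X. Among peaks that were the only such peak of their host gene, the share was 34.3% on X (99 peaks), against 24.5% on autosomes (428 peaks), a difference of 9.81 points (0.189 to 20.3).

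A promoter peak at the nearest start went with height. Near-start intronic peaks with one were among the 1409 highest in 33.5% of cases (245 peaks), against 23.7% of those without (617 peaks), a difference of 9.81 points (3.19 to 16.7). Beside this and the X chromosome, the intervals for the 7 other properties compared all included 0. The difference was 5.01 points (−3.32 to 12.1) for first introns against later ones, 4.48 (−1.42 to 10.4) for distances up to 1000 bp against larger ones, 0.421 (−5.89 to 6.44) for downstream against upstream, and −4.03 (−9.90 to 2.16) for peaks with an E-box against those without. Introns of at most 2000 bp against longer ones gave −0.315 (−7.05 to 7.14), introns of 2 or more genes against 1 gave 4.48 (−5.47 to 16.3), and the only such peak of a gene against one of several gave −0.321 (−6.46 to 5.61).

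The summits lay in dips of GC content. Over the 101 bases around the summit, GC averaged 32.0% ± 8.07 (SD, 862 peaks), against 42.1% in windows of the same length 500 bp to either side, a mean difference of −10.1 points ± 10.8 (SD). GC was below that of its own flanks at 714 of the 862 peaks (82.8%). The flank toward the start had 42.5% and the one away from it 41.8%. Of the 1724 flank windows, the 1291 wholly inside introns had 40.4% ± 9.12 and the other 433 had 47.1% ± 9.99 (SD). At the 506 peaks whose 3 windows were free of exons the difference was −8.93 points ± 10.3 (SD). Windows of 101 bases tiled over all near-start intronic bases had a mean of 39.0%. Promoter peaks averaged 33.6% at the summit and 45.3% in the flanks, and far intronic peaks 31.7% and 41.5%, so the dip was shared by the 3 classes.

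Mean GC at the summit was lower in taller peaks, given as a description. From the highest to the lowest of 4 equal parts of the near-start intronic peaks by signal value, it was 30.0%, 30.8%, 33.0% and 34.1%, with flanks at 41.7%, 41.8%, 43.2% and 41.8%. An E-box was present in 31.0%, 31.2%, 40.0% and 41.7% of them in the same order. The longest run of A or T in a window had a median of 10 bases in near-start intronic, promoter and far intronic peaks alike, and ranged from 3 to 47 among the near-start intronic ones. Runs of this kind are in capitals in the sequences of CG11050, ush, Trl, CG32772 and CG9663 above, while that of Lk6 held none of 8 or more.

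**Figure D4:**
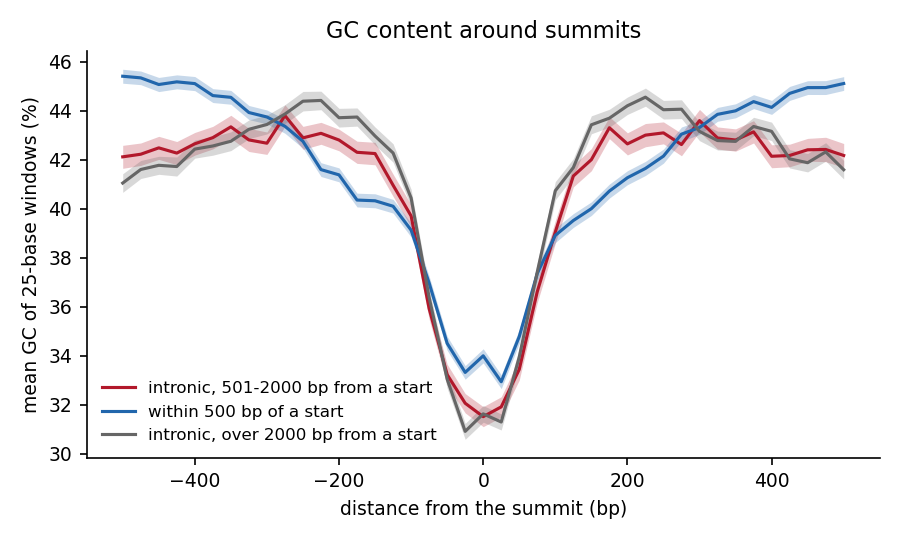
Mean GC (y axis, percent) of 25-base windows against distance from the summit (x axis, bp) in near-start intronic, promoter and far intronic peaks, with bands of 1 standard error over peaks. All 3 classes dip at the summit, where the 101-base means are 32.0%, 33.6% and 31.7%.

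E-boxes, the sites bHLH dimers contact, were less frequent under the summits than beside them. Any CANNTG on either strand lay within 50 bases of the summit in 310 of the 862 peaks (36.0%, 32.8 to 39.3), against 33.9% of all reproducible peaks and 42.1% of the flank windows. The difference from the flanks was −6.09 points (−10.01 to −2.10). It was 3.17 points against promoter peaks (−0.472 to 6.89) and −0.196 against far intronic peaks (−4.31 to 3.96). GC content moved with this result. Against tiled intronic windows the difference was −4.15 points (−7.30 to −0.881), and against the same windows weighted to the GC of the peaks it was 2.17 points (−0.985 to 5.45), with the sign turned. Within 25 bases of the summit the difference from the flanks was −2.44 points (−5.70 to 0.969), and for peaks up to 1000 bp from a start it was −2.17 (−7.99 to 3.78). In 50-base bins, 21.9% of peaks (19.2 to 24.8) had an E-box at the summit, against 25.4% at 500 bp to the left and 23.5% at 500 bp to the right. Promoter peaks had 18.3% at the summit, against 24.4% and 23.6% at those distances. Far intronic peaks had 20.8%, against 24.0% and 25.5%, so all these classes had a lower share at the summit.

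A panel of 30 motifs, searched on both strands, was compared between summit and flank windows. A motif was called when the interval of the difference in shares, widened to a level of 99.8% for the 30 comparisons, left 0 out, and all intervals in the next 2 paragraphs have that level. Near-start intronic summits differed from flanks in 8 of the 30 (26.7%), 3 higher and 5 lower, and in 15 at the 95% level. The panel's 10 E-boxes are all forms of CANNTG, and some motifs overlap, since the long GAGA word (GAGAGAG) contains the short one (GAGAG) and the DREF site (TATCGATA) contains the BEAF core (CGATA).

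Words rich in A and T were the ones more frequent at summits. TATAAA, the TATA box word, was present in 25.6% of summit windows, against 11.3% of flanks (difference 14.4 points, 9.28 to 19.8), and the ush sequence above holds it on the minus strand. The forkhead word TAAACA was in 17.2%, against 10.3% of flanks (6.84 points, 2.39 to 11.7), and the homeodomain word TAATTA in 11.1%, against 7.08% of flanks (4.06 points, 0.392 to 8.24). Lower were GAGAG, the GAGA factor word, with 8.70%, against 16.8% of flanks (−8.06 points, −12.0 to −3.68), its longer form GAGAGAG (1.04%, against 4.35%) and CACACACA (1.51%, against 4.70%). The Pho core GCCAT (11.8%, against 16.7%) and the E-box CAGCTG (2.55%, against 5.28%) were lower with intervals that ended close to 0. These were −9.15 to −0.168 for GCCAT and −5.04 to −0.00501 for CAGCTG. Against tiled intronic windows CAGCTG was not called (−1.05 points, −2.29 to 1.26). Neither were the homeodomain word, CACACACA, the GAGA factor word and its longer form. The GAGA factor word was in 11.1% of tiled windows, fewer than the 16.8% of flanks (summits minus tiled windows −2.44 points, −5.03 to 1.07). The 4 motifs called against tiled windows were the TATA box and forkhead words, higher, and the Pho core and the E-box CACCTG, lower. That E-box was not called against flanks. Once the tiled windows were weighted to the GC of the peaks 0 motifs were called, with 0 at the 95% level as well.

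**Figure D5:**
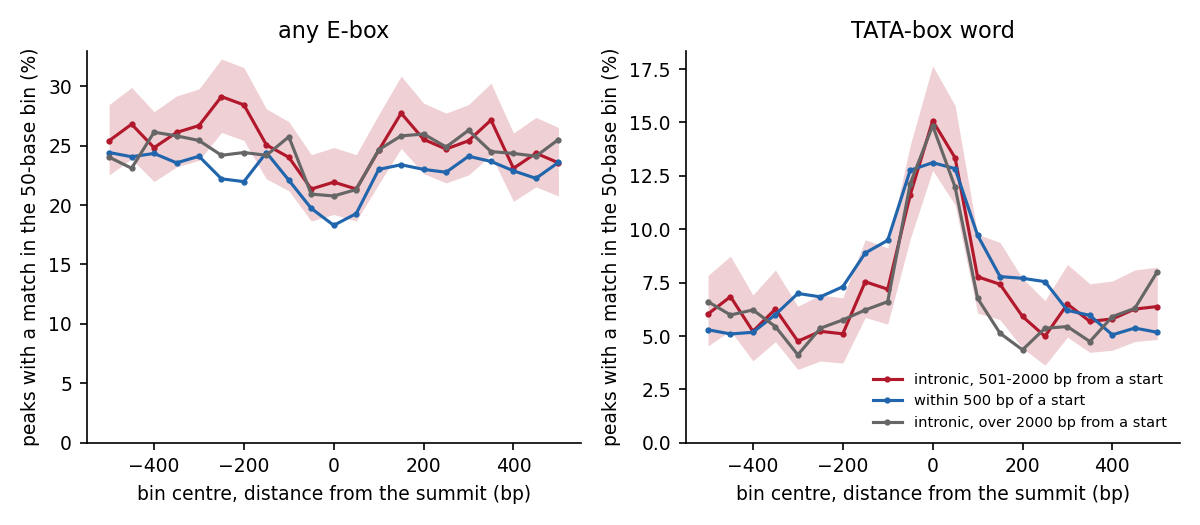
Share of peaks with a match in 50-base bins (y axis, percent) against the distance of the bin centre from the summit (x axis, bp), for any E-box on the left and TATAAA on the right. In near-start intronic peaks the E-box share is 21.9% at the summit, and the TATAAA share is 15.1% at the summit against 6.03% and 6.38% at 500 bp to the left and right.

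Against promoter peaks, 4 of the 30 motifs were called (13.3%), 3 lower and 1 higher in near-start intronic peaks, and 8 at the 95% level. TATCGATA, the site of the replication-related factor DREF, was in 1 near-start intronic window (0.116%), the one in Stt3A printed above, against 3.003% of promoter windows (−2.89 points, −4.15 to −1.36). CGATA, the core bound by the insulator protein BEAF, was in 10.8%, against 19.2% of promoter windows (−8.37 points, −12.2 to −3.93). The Ets word CCGGAA was in 1.16%, against 3.32% of promoter windows (−2.16 points, −3.65 to −0.105). The E-box CAAATG, shown above in LPCAT, was in 11.9%, against 8.22% of promoter windows (3.73 points, 0.147 to 7.94). With promoter windows weighted to the GC of the near-start intronic ones only DREF and BEAF, whose sites overlap, were called. CAAATG (3.18 points, −0.498 to 7.44) and CCGGAA (−1.56 points, −3.04 to 0.465) were not. TATAAA (25.6%, against 23.9% of promoter windows) and GAGAG (8.70%, against 9.13% of promoter windows) were not called in either comparison. No motif of the panel was called against far intronic peaks (0%), and 1 was higher at the 95% level, the E-box CACATG with 4.41%, against 2.80% of far intronic windows.

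The same held for all 2080 words of 6 bases, each counted together with its reverse complement and called at a level adjusted for 2080 comparisons. Against flanks 120 words were higher (5.77%) and 51 lower (2.45%). Of the 120, 34 were made of A and T only, of 36 such words in all, and 82 held 1 G or C, while every one of the 51 held 2 or more. TTAAAA was in 33.1%, against 14.9% of flanks, and GGAAAA in 9.40%, against 16.1% of flanks. Against promoter peaks 1 word was higher (0.0481%), CATACA with 9.98%, against 5.22% of promoter windows. The 3 lower words (0.144%) were CGATAG, which contains the BEAF core (1.51%, against 7.94% of promoter windows), and 2 overlapping parts of the DREF site, TATCGA (3.71%, against 9.996% of promoter windows) and ATCGAT (3.25%, against 7.78% of promoter windows). TATCGA contains the BEAF core as well, on the other strand. Against far intronic peaks 0 were higher (0%) and 0 lower (0%). At the 95% level, which calls some of 2080 words even where none differ, 97 were called (59 higher and 38 lower). Against promoter peaks 309 were called at that level (140 higher and 169 lower).

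Against GC-weighted tiled windows 4 words were more frequent at near-start intronic summits and 1 less. ACAGTG was in 7.54%, against 3.20% of the weighted windows, and the overlapping CAGTGG in 5.45%, against 2.57%. ACTGTG was in 5.92%, against 3.07%, and CTGTAC in 4.64%, against 2.00%. On the other strand these read CACAGT and GTACAG, which overlap ACAGTG as well, so the 4 words are not independent. CAAAAA was the lower one, with 17.7%, against 24.5%. In the peaks' own flanks ACAGTG was in 4.99%, ACTGTG in 4.23% and CTGTAC in 2.26%. CAGTGG was in 6.44% of flanks, more than at the summits. ACAGTG was in 6.32% of promoter windows and 5.29% of far intronic windows. The Lk6 sequence printed above holds it. Peaks with ACAGTG had a median signal value of 213, against 239 in those without.

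Gene lists were read against the 7.76% of protein-coding genes with near-start intronic bases that hosted a peak (704 of 9074). They are described by counts and by peaks per Mb of near-start introns, with no test, since lists differ in how many such bases their genes offer. Over all near-start introns there were 83.7 peaks per Mb. RNA binding and splicing regulators hosted peaks in 11 of 27 genes with such bases (15 peaks), among them mub (666) and ps (567), both genes of KH-domain RNA-binding proteins. Epithelial polarity and junction genes had 8 of 27 (12 peaks), including cno, the afadin homologue (483), crb, the apical determinant crumbs (399), and dlg1, a septate junction scaffold gene (397). Per Mb the RNA binding list had 89.0 peaks, near the 83.7 over all such introns, and the epithelial list 146.

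Among signalling lists, in the EGF receptor and Ras list 7 of 25 genes hosted a peak, including drk, the Grb2-type adaptor gene (682), ths, an FGF ligand gene (619), and sty, the sprouty inhibitor gene (306). In the Wingless and Hedgehog list 4 of 30 did, with sgg, the GSK3 kinase gene (295), and arr, a co-receptor gene (279), and in the Dpp and Activin list 3 of 21, where shn held 7 of the 10 peaks, beside wit, a type II receptor gene (703), and Mad, a Smad gene (518). The Notch list had 1 of 18, neur, a ubiquitin ligase gene that acts on Delta (652). Among ecdysone response genes 6 of 22 hosted a peak, with br, an early ecdysone response gene, at 367, tai, a nuclear receptor coactivator gene, at 305 and Hr4 at 196. Peaks per Mb were 118 in the EGF receptor and Ras list, 88.7 in Wingless and Hedgehog and 178 in Dpp and Activin. They were 28.1 in the Notch list and 66.2 in the ecdysone list. These values rest on 1 to 10 peaks per list.

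Among regulators, 5 of 34 bHLH genes hosted a peak, with gce at 1326 and crp, an AP-4-type bHLH gene, at 753 and 570. Polycomb and trithorax group genes had 4 of 27, with ph-p (718) beside Trl, and insulator and promoter factors 4 of 15. Trl is in both of these lists, and its 3 peaks are among the 6 of the first and the 7 of the second. Neuronal and axon guidance genes had 6 of 34, with elav, a neuronal RNA-binding protein gene, at 533 fra, a netrin receptor gene, at 411 and NetB, a netrin gene, at 388. Glial genes had 4 of 17, with Gs2, a glutamine synthetase gene (694), and loco (285 and 224), neuroblast and temporal factors 3 of 16, with brat (1225), insc (266) and grh (207), and mesoderm and muscle genes 5 of 31, with zfh1 (700), kirre (490) and mbc (236). The bHLH list had 112 peaks per Mb, the Polycomb and trithorax list 256, and the insulator and promoter list 328. Neuronal genes had 58.0, glial genes 138, neuroblast and temporal factors 35.7, and mesoderm and muscle genes 56.8. These values rest on 3 to 8 peaks per list. No gene hosted a peak among 22 endoderm and midgut regulators, 16 Hox and homeotic genes, 50 ribosomal protein genes and 134 chemosensory receptor genes. Those 4 lists offered 47.4, 30.8, 13.2 and 39.6 kb of near-start introns. A list without a peak shows only that none passed the threshold of the reproducible list there. Of the list genes named, drk, br, fra, NetB, insc and kirre hosted peaks whose nearest start belonged to another gene.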

How the data were processed

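Per the labels, chromatin from 6 to 24 h embryos was sonicated and precipitated with an anti-GFP antibody in 2 biological replicates. The authors deposited peak lists on dm6 for each replicate, for both pooled (30000 peaks each) and for the reproducible set, which was thresholded on the irreproducible discovery rate, per the deposited file descriptions. Names of an aligner or peak caller: not given in the sources used here. Each peak has the authors' signal value, on an undefined scale, and the authors' −log10 q. The latter was the same, 4.09, for all reproducible peaks and was not used to rank them. No read counts were used, so depth, and with it the precision of each signal value, is unknown. The reference genome was dm6 and the annotation Ensembl release 115.

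Peaks were assigned by summit (column start plus offset). The members and gene lists were chosen with earlier results of these data known. The rule for naming covers the 20 highest peaks, genes with 3 or more (those with the most are given), up to 3 peaks of each gene list, the highest peak with a called motif and the peaks next to each distance limit. In 31 cases a list symbol had no match in the annotation. The result of 1 gene list is not reported here. Shares have exact Clopper-Pearson intervals, differences of shares Newcombe intervals, and the density ratio an exact conditional interval, all at 95% unless stated, and no p-values were computed. Motifs were counted in windows of 101 bases around the summit, in flanks 500 bp away and in tiled windows, weighted in GC bins of 5% where stated. The functions were tested on simulated data. Scripts ran in Python 3.11.15 with scipy 1.17.1 for intervals, pandas 2.3.3 and numpy 2.4.6 for tables, and matplotlib 3.10.9 for figures. Alternatives covered each replicate's list alone, a stricter list, narrower distance ranges, other overlap rules, window widths and backgrounds.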

Additional observations from a re-analysis of the deposited data

How the results depend on the processing

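Of 67 alternative values, 45 were unchanged, meaning that they kept their direction and call. Values with no test had to stay inside the interval of the main value, and counts of called motifs within 1.5 times of the main count. The share of near-start intronic peaks was 6.94% for distances up to 1000 bp and 8.36% beyond 1000 bp, by construction of the narrower range. With each replicate's list alone it ranged from 14.7% to 15.4%, the density ratio from 2.68 to 2.95 and the first-intron share from 84.1% to 84.9%. The difference in height from promoter peaks lost its call up to 1000 bp (−1.72 points), by replicate 2 signal (−1.95) and without replicate 1, the range without each replicate being −6.18 to −1.59. Overlap with both replicates was 98.5% in the higher 2818 peaks of the list, 72.2% when 50% of both peaks had to overlap and 93.6% for summits within 100 bp. The GC difference was −11.4 points in the higher 2818 peaks, −10.9 up to 1000 bp, −7.80 with 100 bases either side, −7.02 against tiled windows, and −9.88 to −9.23 without each replicate. Motifs called against flanks numbered 4 up to 1000 bp, 3 beyond 1000 bp, 3 with 25 bases either side, 4 against tiled windows, 0 against GC-weighted ones and 6 to 7 without each replicate. Against the other classes 7 were called with 100 bases either side. The E-box difference lost its call up to 1000 bp (−2.17 points) and with 25 bases either side (−2.44), turned to 2.17 against GC-weighted windows, and was −7.89 to −6.76 without each replicate. For these changes the cause was not tested. Samples could not be paired across conditions because there is 1 group. Summit and flank windows come from the same peaks, and the GC difference was taken within each peak. The intervals for motifs and E-boxes against flanks treated those windows as independent. Without read counts, what depth limits is unknown.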
